A study of Mus musculus with 2 samples.

Results

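The genes described here are the collagens, laminins, integrins and other extracellular matrix genes of the mouse kidney, taken by gene symbol from a whole-kidney RNA-seq table: every collagen chain, every laminin chain, every symbol that begins with Itga or Itgb, the lysyl oxidases, fibrillins, fibulins and thrombospondins, both nidogens, and *Hspg2*, *Tnc*, *Fn1*, *Postn*, *Sparc*, *Vcan*, *Dcn*, *Lum* and *Bgn*. The rule for this choice used names and no measured value, although it was set with earlier results of these data known. It found 101 of the 19829 genes in the table. No gene with a row lacked reads in either library. Of 44 collagens and 28 integrins listed by name, 8 and 3 had no row, and the counts below leave them out. *Itgb1bp1*, *Itgb1bp2* and *Itgb3bp* came in by name although they encode proteins that bind integrins, and *Itgbl1* encodes an integrin-like protein that is no receptor subunit.

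The table holds 1 library from each of 2 groups of male C57BL/6 mice, named WT+AKI (I/R+WT+Voc in the study) and TG+AKI (I/R+Tg+Voc). Mice of both groups received voclosporin, a calcineurin inhibitor used in lupus nephritis, at 30 mg/kg by daily intraperitoneal injection for 2 weeks from 8 weeks of age, and then had both kidneys made ischemic for 30 min at 14 weeks of age. The Tg mouse carries a transgene that overexpresses *Inmt*, the gene of indolethylamine N-methyltransferase, specifically in proximal tubules, and the WT mice were control littermates. Whether a library came from 1 animal or from several is not given in the sources used here. The kidney was taken 48 h after reperfusion by the stated methods, although 24 h is also stated, and neither an untreated nor a sham-operated library was analysed here. The title of the Tg library also speaks of a conditional knockout, but *Inmt* was at 10.4 (443 reads) without the transgene and at 402.8 (13339 reads) with it, 38.5-fold higher.

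With 1 library per group no spread between animals can be measured, so no test of the genotype was possible and no difference below is called significant. Values are the deposited normalized values, in which 1 read is worth 0.0236 in WT+AKI (38542764 reads over genes) and 0.0302 in TG+AKI (36427421 reads). A ratio or fold is the TG+AKI value over the WT+AKI value or its inverse, and its 95% interval is the exact Clopper-Pearson interval of the reads behind it, which covers counting error only. A gene was compared where its value was at least 1 in at least 1 library, and was called lower or higher when it differed at least 2-fold. Defining genes of kidney cells were present in both libraries, among them *Lrp2* of proximal tubules (644.3 and 2754) and *Umod* of the thick ascending limb (1427.1 and 1921.1).

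Fibrillar collagens assemble into the cross-linked fibres of the connective tissue between tubules, where fibroblasts and pericytes make most of them and lysyl oxidases join neighbouring molecules. Basement membranes are the thin sheets under tubular epithelium, endothelium and podocytes, built from a network of type IV collagen and a network of laminin trimers, with nidogens and perlecan between them. Integrins pair an alpha with a beta subunit at the cell surface, hold cells to both kinds of matrix and, on leukocytes and platelets, bind other cells.

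The collagen classes differ in the coding sequence itself, in how long the glycine repeat runs unbroken. The stretches printed here show the repeat and some of its breaks, not its length. Every triple-helical chain has glycine as 1 of every 3 residues. In the longest coding transcript of GENCODE M21 (mouse build GRCm38), the uninterrupted glycine repeat ran for 1014 codons in *Col1a1* and 1032 in *Col3a1* but for no more than 198 codons in any type IV chain, where *Col4a1* had 23 separate repeats and *Col4a4* 27. The first 15 codons of the longest repeat of the fibrillar genes that differed most between the libraries, and of the 4 most abundant type IV genes, are given with the glycine codons of the repeat in capitals.
Col1a1, codons 168 to 182: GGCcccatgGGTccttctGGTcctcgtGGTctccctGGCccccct
Col3a1, codons 164 to 178: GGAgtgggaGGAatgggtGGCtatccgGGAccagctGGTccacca
Col27a1, codons 673 to 687: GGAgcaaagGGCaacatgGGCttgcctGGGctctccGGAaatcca
Col4a1, codons 43 to 57: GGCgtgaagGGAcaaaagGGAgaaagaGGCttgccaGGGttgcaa
Col4a2, codons 777 to 791: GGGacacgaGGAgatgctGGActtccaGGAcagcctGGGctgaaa
Col4a3, codons 43 to 57: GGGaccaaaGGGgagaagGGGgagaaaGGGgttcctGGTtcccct
Col4a4, codons 823 to 837: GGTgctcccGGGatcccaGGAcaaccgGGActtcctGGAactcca

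The repeats of type IV chains, and of *Col18a1* in the same sheets, are broken by stretches in which that spacing of glycine is lost. The 15 codons around the end of the longest repeat show such a break, again with the glycine codons of a repeat in capitals. The break was 10 codons long in *Col4a1*, 11 in *Col4a3*, 5 in *Col4a4* and 23 in *Col18a1*. In *Col27a1*, a fibrillar collagen whose longest repeat had 651 codons, it was 1 codon long.
Col4a1, codons 157 to 171: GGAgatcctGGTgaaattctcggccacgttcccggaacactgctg
Col4a3, codons 154 to 168: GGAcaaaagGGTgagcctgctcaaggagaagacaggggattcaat
Col4a4, codons 952 to 966: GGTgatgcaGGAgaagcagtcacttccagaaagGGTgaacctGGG
Col18a1, codons 1037 to 1051: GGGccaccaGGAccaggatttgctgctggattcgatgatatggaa
Col27a1, codons 1318 to 1332: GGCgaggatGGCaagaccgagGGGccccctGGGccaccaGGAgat

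Matrix and integrin genes stood lower in TG+AKI as a set. The 101 genes summed to 7103.7 in WT+AKI against 4342.6 in TG+AKI, which is 0.781% and 0.395% of all values of the library. Of the 90 genes compared, 35 were at least 2-fold lower, where 11.0% of all genes compared were (1645 of 14997). In the other direction 3 were at least 2-fold higher, where 7.35% of all genes were (1103 of 14997), and each of the 3 had a WT+AKI value under 1. The median log2 ratio was -0.71 over the 90 genes and -0.02 over all genes, with 67 of the 90 below their WT+AKI value. Scaling both libraries to equal column totals lowers every log2 ratio by 0.275, the median of all genes included, and puts 8 genes near a ratio of 1 below their WT+AKI value (*Fbln7*, *Hspg2*, *Itga2b*, *Itga4*, *Itgae*, *Itgb1bp1*, *Itgb5* and *Nid2*). The other 11 genes stayed under a value of 1 in both libraries, and 8 of the 90 were compared through 1 library alone, 4 through each. The 4 through WT+AKI (*Lamb3*, *Itga2*, *Postn* and *Vcan*) were all called lower. The 4 through TG+AKI (*Col6a6*, *Col19a1*, *Col23a1* and *Itgb7*) held all 3 genes called higher. These genes entered only through the library where they were high. With no lower limit on the value, 36 of the 101 were at least 2-fold lower, beside 12.6% of all genes, and 6 at least 2-fold higher, beside 9.18%. All of these genes had reads in both libraries.

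The order of the 3 main classes rested in part on the lower limit on values. Fibrillar collagens had the lowest median, with 4 of 7 compared genes at least 2-fold lower, none above its WT+AKI value, and a median log2 ratio of -1.25. Integrins followed, with 10 of 24 at least 2-fold lower, 8 above their WT+AKI value (4 with equal column totals), and a median of -0.70. Basement membrane genes (type IV collagens, laminins, nidogens and perlecan) lay closest to the background of all genes, with 4 of 20 at least 2-fold lower (7 with equal column totals), 8 above their WT+AKI value (6), and a median of -0.16. With no lower limit, *Col11a2* and *Col24a1* enter, *Col24a1* is above its WT+AKI value (ratio 1.11), and the fibrillar median of -0.64 no longer lies below that of integrins, -0.66. Summed values were 2.80-fold lower for fibrillar collagens, 1.62-fold lower for integrins and 1.31-fold lower for basement membrane genes. In bulk tissue, fewer cells of a type and less RNA per cell cannot be told apart.

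**Figure D1:**
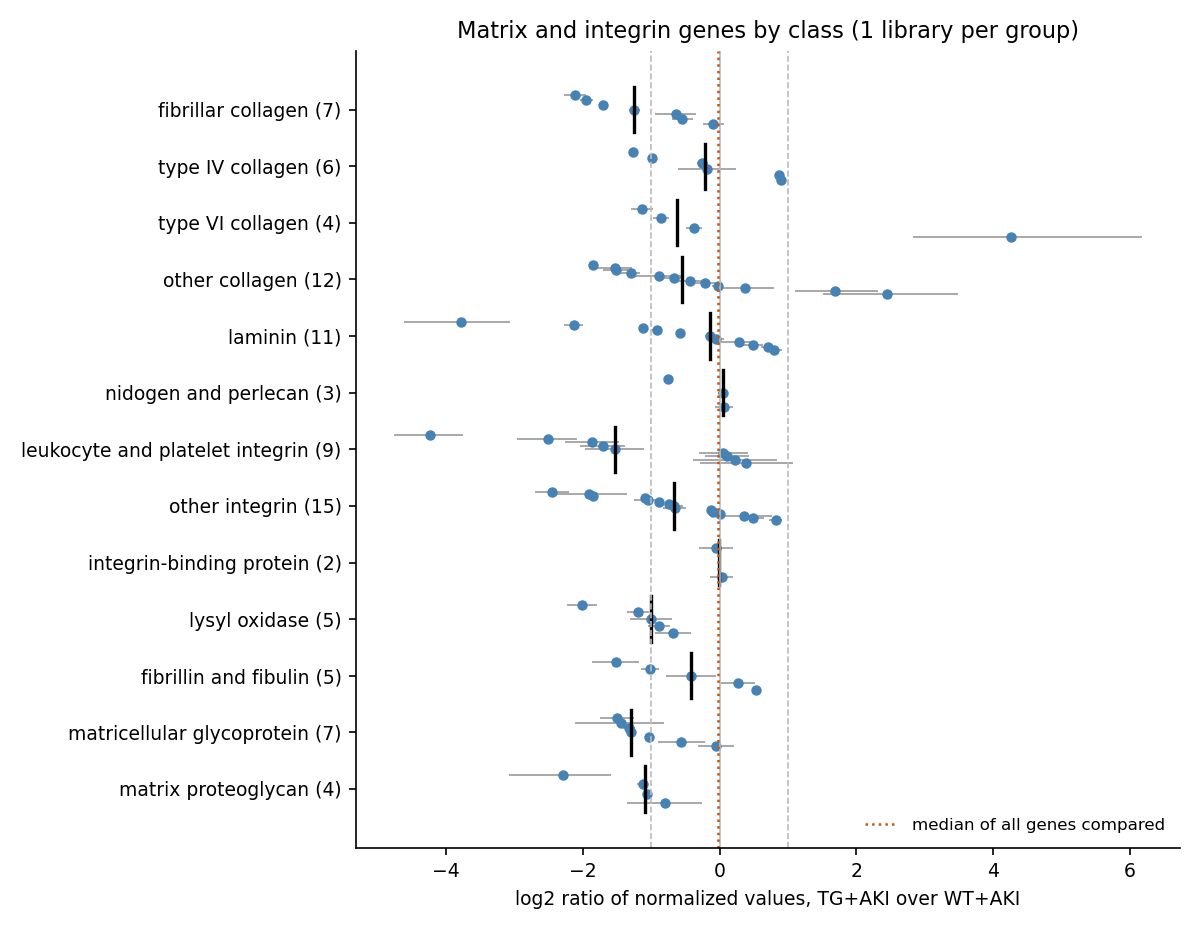
Log2 ratio of the normalized values (TG+AKI over WT+AKI, 1 library each) for the 90 matrix and integrin genes compared, by class with the number of genes in parentheses. Each point is a gene with its 95% counting interval as a line, the black bar is the class median, dashed lines mark 2-fold, and the dotted line is the median of all genes compared (-0.02). Fibrillar collagens, matricellular glycoproteins, lysyl oxidases and proteoglycans have no point to the right of 0, whereas type IV collagens and laminins lie on both sides.

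Among the fibrillar collagens, *Col1a1*, *Col3a1* and *Col27a1* differed most, *Col1a2* less, and the chains of type V least. *Col1a1* (chr11:94936224-94953042), a chain of the main collagen of scars and tendons, stood at 47.8 in WT+AKI against 11.1 in TG+AKI, 4.31-fold lower (95% interval 3.85 to 4.83). *Col3a1* (chr1:45311538-45349706), which forms fibres together with type I, stood at 119.5 and 31.0, 3.86-fold lower (3.61 to 4.13). *Col1a2*, the partner chain of *Col1a1*, stood at 120.3 and 50.6, 2.38-fold lower (2.25 to 2.51). The partner chains of type I thus differed unequally, with intervals that do not overlap. *Col27a1*, best known from cartilage, stood at 252.5 and 77.6, 3.26-fold lower (3.12 to 3.40). Per kb of the longest transcript it had the highest level in the class in both libraries (33.2 and 10.2, ahead of *Col1a2* at 22.5 and 9.47). That rank depends on the length used, as the mean transcript was 5036 bp for *Col27a1*, 3099 bp for *Col1a2* and 2295 bp for *Col3a1*. Type V collagen, which starts the assembly of type I fibres, was nearer to equal. *Col5a1* stood at 23.4 and 16.0 (1.46-fold lower, 1.31 to 1.62), *Col5a3* at 6.70 and 4.29 (1.56-fold lower, 1.27 to 1.92), and *Col5a2* at 20.3 and 19.1, a difference within counting error. *Col11a2* (33 and 23 reads) and *Col24a1* (30 and 26 reads) stayed under a value of 1 and were not compared.

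The enzymes that cross-link fibrils were on the same side as the fibrils. All 5 lysyl oxidases were below their WT+AKI value, with a median log2 ratio of -0.999. *Lox* itself stood at 25.5 in WT+AKI against 6.34 in TG+AKI, 4.02-fold lower (3.47 to 4.69), and *Loxl1*, which acts on elastic fibres, at 29.98 and 13.2, 2.28-fold lower (2.04 to 2.54). *Loxl3*, at 7.67 and 3.84, had a ratio of 0.5003 that fell just short of the 2-fold call. *Loxl2*, an enzyme that also cross-links type IV collagen, stood at 24.7 and 13.3, but 43.5% of its 100-base words also occur in another annotated gene, so its value is uncertain. *Loxl4* was 1.61-fold lower (1.34 to 1.93). The enzymes that fold and process procollagen inside and outside the cell did not show a difference of that size: of 22 compared genes on that list none was at least 2-fold lower, 1 was higher (*Adamts14*, a procollagen N-propeptidase, 1.16 and 2.36), and the median log2 ratio was -0.30. *Serpinh1*, the collagen chaperone HSP47, stood at 127.0 and 80.6, *Plod2*, a lysyl hydroxylase, at 93.8 and 57.1, and *P4hb*, a subunit of prolyl hydroxylase, at 651.3 and 643.1.

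Most of the glycoproteins and proteoglycans taken by name, which sit on or between collagen fibres, were lower too, while other small leucine-rich proteoglycans were higher. Of 7 matricellular and adhesive glycoproteins compared, 5 were at least 2-fold lower, with a median log2 ratio of -1.30. *Sparc*, a collagen-binding glycoprotein, stood at 254.4 and 125.1 (2.03-fold lower, 1.96 to 2.11). *Thbs1*, an activator of latent TGF-beta, stood at 143.9 and 58.6 (2.46-fold lower, 2.33 to 2.59). *Fn1*, fibronectin, stood at 99.0 and 39.6 (2.50-fold lower, 2.35 to 2.66). *Tnc*, tenascin C, which appears in matrix under repair, stood at 14.7 and 5.19 (2.83-fold lower, 2.39 to 3.37), and *Postn*, periostin, at 2.22 and 0.815, the last from 94 and 27 reads (2.72-fold lower, 1.76 to 4.34). *Thbs3* was 1.47-fold lower, *Thbs2* stood at 6.68 and 6.43, and *Thbs4*, with 3 and 6 reads, was not compared. The small leucine-rich proteoglycans *Bgn* (359.1 and 172.2) and *Dcn* (120.4 and 55.2), which coat fibrils, were 2.09-fold (2.02 to 2.15) and 2.18-fold (2.07 to 2.30) lower. *Lum*, a relative of theirs, was 1.73-fold lower (1.19 to 2.55), and *Vcan*, the large proteoglycan versican, stood at 2.81 and 0.574 (4.89-fold lower, 2.999 to 8.41). The relatives of *Bgn* and *Dcn* on the list of further interstitial matrix genes stood on the other side: *Fmod* had a ratio of 2.83 (2.22 to 3.62), *Aspn* of 1.76 (1.33 to 2.34), *Ogn* of 1.62 (1.496 to 1.75) and *Prelp* of 1.41 (1.30 to 1.54).

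**Figure D2:**
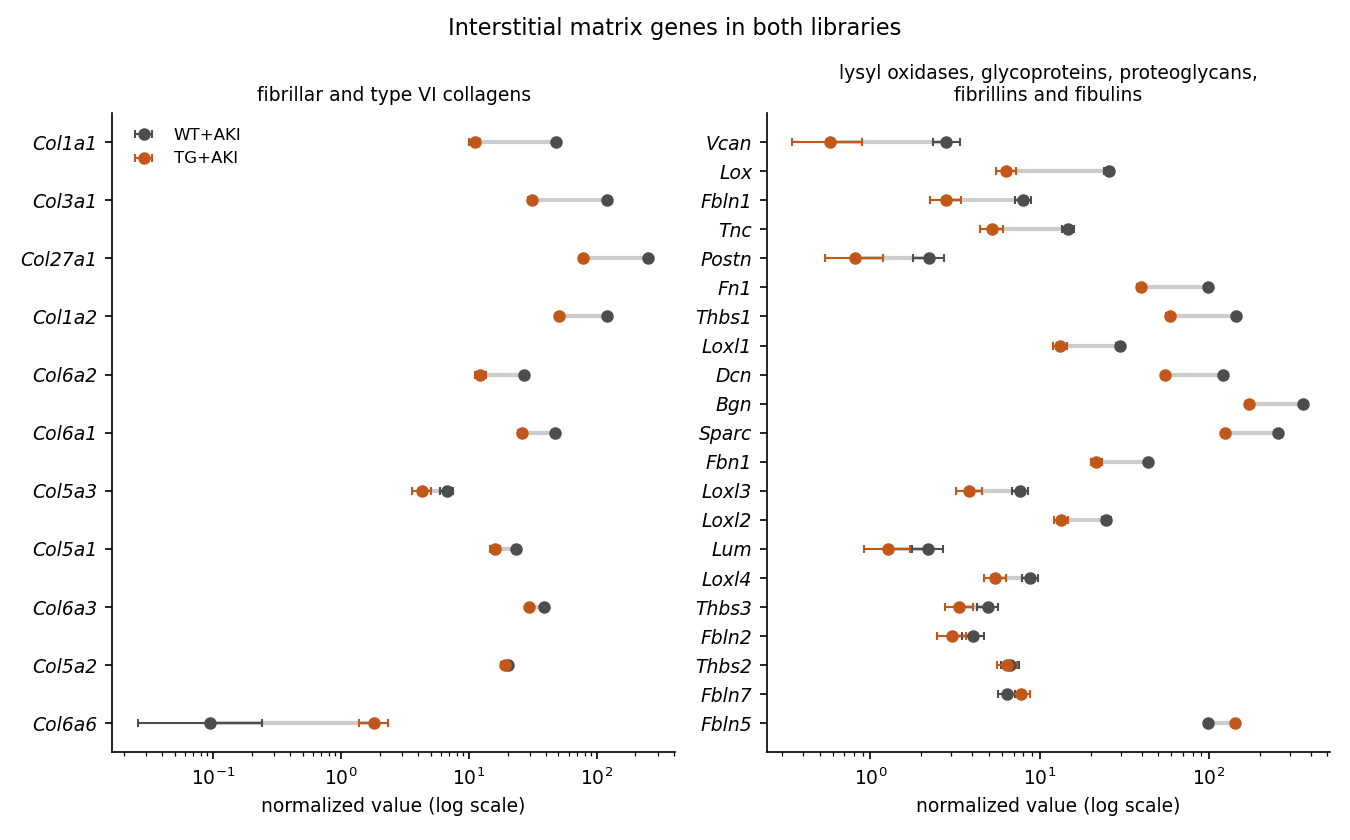
Normalized value (log scale) of interstitial matrix genes in the WT+AKI library (grey) and the TG+AKI library (orange), 1 library each, with exact 95% counting intervals as error bars and a grey line joining the 2 values of a gene. Fibrillar and type VI collagens are on the left, lysyl oxidases, glycoproteins, proteoglycans, fibrillins and fibulins on the right. TG+AKI is to the left of WT+AKI for all genes shown but *Col6a6*, *Fbln5* and *Fbln7*, the last of which changes side with equal column totals.

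Microfibril genes went both ways. *Fbn1*, fibrillin-1, the core of elastic microfibrils, stood at 43.8 and 21.6 (2.02-fold lower, 1.86 to 2.21) and *Fbln1* at 7.97 and 2.78 (2.87-fold lower, 2.27 to 3.65). *Fbln5*, which deposits elastin on microfibrils, stood higher in TG+AKI, at 98.1 and 142.5, a ratio of 1.45 (1.39 to 1.52). *Fbln2* was 1.34-fold lower (1.04 to 1.73), *Fbln7* stood at 6.37 and 7.70, and *Fbn2* (42 and 10 reads) was not compared. Type VI collagen, which forms beaded filaments around cells, was lower in each of its 3 main chains. *Col6a2* stood at 26.8 and 12.3 (2.19-fold lower, 1.95 to 2.46), *Col6a1* at 46.8 and 25.8 (1.82-fold lower, 1.67 to 1.97), and *Col6a3* at 38.2 and 29.6 (1.29-fold lower, 1.19 to 1.40). The alternative chain *Col6a6* stood at 0.0943 from 4 reads in WT+AKI against 1.81 from 60 reads in TG+AKI, a ratio of 19.2 with the wide interval of 7.12 to 72.8. *Col6a4*, at 4 and 21 reads, and *Col6a5*, at 23 and 11 reads, were not compared.

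Most fibroblast and pericyte markers were lower beside these genes, but not all. Of 6 compared, 1 was at least 2-fold lower (*Dpt*, 4.84 and 1.27), the median log2 ratio was -0.77, and the list of 7 summed to 329.9 in WT+AKI against 216.0 in TG+AKI. *Pdgfrb*, a receptor of pericytes and fibroblasts, stood at 114.2 and 61.3, and *Pdgfra*, a receptor of fibroblasts, at 97.7 and 59.0. *Rgs5*, a pericyte gene, stood at 61.9 and 60.5, and *Meox1*, of activated fibroblasts, was higher in TG+AKI, at 3.82 and 6.88 (ratio 1.80, 1.47 to 2.22). Smooth muscle and myofibroblast markers summed to 89.0 and 83.5, with none of 4 called, and *Acta2*, smooth muscle actin, stood at 29.98 and 29.6. The part of these cells in the collagen values was not tested.

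Of the collagens that are neither fibrillar nor of types IV and VI, *Col18a1* (chr10:77052178-77166530) had the highest level per kb of transcript in both libraries (104.1 and 29.0). It encodes a heparan sulfate-bearing collagen of basement membranes whose end is released as endostatin, and stood at 582.3 in WT+AKI against 162.1 in TG+AKI, 3.59-fold lower (3.49 to 3.70). Its closest relative *Col15a1* stood at 42.2 and 17.2 (2.46-fold lower, 2.23 to 2.71). The transmembrane collagen *Col13a1* (13.9 and 4.83) and *Col8a1* (26.4 and 9.21), a network-forming collagen of vessel walls, were 2.89-fold and 2.87-fold lower. Collagens that decorate fibrils mostly were closer to equal: *Col14a1* stood at 75.2 and 73.8, *Col12a1* at 11.1 and 9.51, and *Col16a1* at 24.4 and 15.3. *Col7a1*, the anchoring fibril collagen, was 1.84-fold lower (1.44 to 2.37) and *Col20a1* 1.35-fold lower (1.12 to 1.64). In the opposite direction, *Col23a1*, a transmembrane collagen, had 34 and 86 reads (ratio 3.24, 2.15 to 4.97) and *Col19a1* 12 and 51 reads (ratio 5.44, 2.86 to 11.2). *Col26a1* stood at 2.19 and 2.84, and *Col8a2*, *Col9a3* and *Col25a1* were not compared.

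Type IV collagen, the only collagen that builds the sheet itself, split by gene pair. The 6 genes lie in 3 head-to-head pairs, each pair transcribed outward from a common stretch. *Col4a1* and *Col4a2* encode the chains found in nearly all basement membranes. *Col4a1* (chr8:11198423-11312889) stood at 650.1 in WT+AKI against 270.5 in TG+AKI, 2.40-fold lower (2.35 to 2.46), and *Col4a2* (chr8:11312805-11449287) at 408.8 and 205.5, 1.99-fold lower (1.93 to 2.05). *Col4a3* and *Col4a4* encode chains of the glomerular basement membrane and of some tubular ones, and their loss causes Alport syndrome. *Col4a3* (chr1:82586921-82722059) stood at 204.7 and 382.2, a ratio of 1.87 (1.82 to 1.92), and *Col4a4* (chr1:82448419-82587034) at 171.1 and 312.9, a ratio of 1.83 (1.78 to 1.89). Both members of the first pair were therefore lower in TG+AKI and both members of the other pair higher, under each scaling tried. The third pair lay between them. *Col4a5* (chrX:141475370-141689236), whose product joins those of *Col4a3* and *Col4a4* in 1 trimer, stood at 70.1 and 59.0 (1.19-fold lower, 1.12 to 1.26), and *Col4a6* (chrX:141165403-141474095) at 2.74 and 2.42, a difference within counting error.

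Positions are gene spans on GRCm38, the assembly that mm10, the build named in the submitters' processing notes, shares. On it the spans of *Col4a1* and *Col4a2* overlap by 85 bp and those of *Col4a3* and *Col4a4* by 114 bp on opposite strands, where reads cannot be told apart unless strand was used in counting, and *Col4a6* and *Col4a5* are 1274 bp apart. In RefSeq the starts of *Col4a1* and *Col4a2* are 21 bp apart, so a promoter window of 250 bp before to 50 bp after each start shares 78 bp between the pair. Because both genes were lower and their promoter windows overlap, 30 bases of that shared stretch are shown on the plus strand of RefSeq's GRCm38.p6, with a GC box (GGGCGG, the motif of Sp1-type factors) in capitals.
Col4a1 and Col4a2, chr8:11312800-11312829: tcggcagtgcgcGGGCGGcgtctccaaggg

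Per kilobase of the longest annotated transcript, the balance of the pairs within a library shifted. In WT+AKI *Col4a1* was at 98.3 per kb, *Col4a2* at 63.4, *Col4a3* at 23.9, *Col4a4* at 16.9 and *Col4a5* at 10.7. In TG+AKI the same genes were at 40.9, 31.9, 44.7, 31.0 and 9.03 per kb. The level of *Col4a3* per kb relative to *Col4a1* was 0.243 (0.238 to 0.249) in WT+AKI and 1.09 (1.06 to 1.12) in TG+AKI, and that of *Col4a4* relative to *Col4a2* was 0.267 (0.260 to 0.274) and 0.972 (0.942 to 1.002). Relations inside the pairs moved less: *Col4a3* to *Col4a4* was 1.41 and 1.44, and *Col4a1* to *Col4a2* was 1.55 and 1.28. These relations within a library do not depend on how the libraries were scaled to each other. Among all 101 genes, *Col4a3* was 16th by level per kb in WT+AKI and 4th in TG+AKI, *Col4a4* 21st and 9th, *Col4a1* 5th in both, and *Col18a1* 4th and 10th. The top 3 per kb in both libraries were *Bgn*, *Itgb1* and *Sparc*. These ranks, and the relations inside the pairs, depend on the use of the longest transcript. The mean transcript length was 3235 bp for *Col4a3* but 10108 bp for *Col4a4*, and 3087 bp for *Col4a1* but 6450 bp for *Col4a2*.

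**Figure D3:**
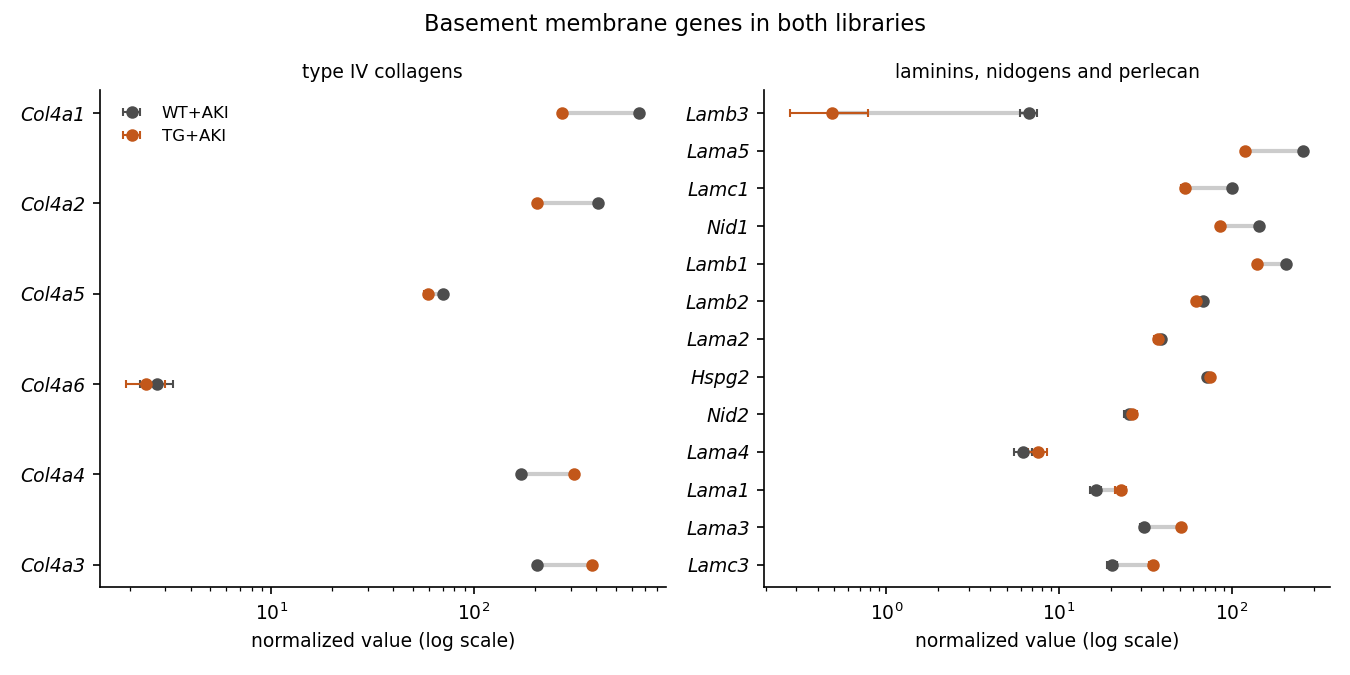
Normalized value (log scale) of type IV collagen genes (left) and of 10 laminin, 2 nidogen and the perlecan genes (right) in the WT+AKI library (grey) and the TG+AKI library (orange), 1 library each, with exact 95% counting intervals and a grey line joining the 2 values of a gene. *Col4a1* and *Col4a2* are lower in TG+AKI and *Col4a3* and *Col4a4* higher, and the laminins run from *Lamb3* (13.8-fold lower) to *Lamc3* (ratio 1.73).

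Laminins were lower in 7 and higher in 4 of 11 genes, with 3 at least 2-fold lower and none at least 2-fold higher. The largest difference was in *Lamb3* (chr1:193294353-193343878), the beta chain of the laminin that anchors epithelial hemidesmosomes. It stood at 6.68 from 283 reads in WT+AKI against 0.483 from 16 reads in TG+AKI, 13.8-fold lower (8.36 to 24.5). The alpha chain of that same trimer did not move with it: *Lama3* stood at 31.2 and 51.2, a ratio of 1.64 (1.53 to 1.77). The chains of the general laminin of mature basement membranes were lower to unequal degrees. *Lama5* (chr2:180176373-180225904) stood at 257.9 and 118.8 (2.17-fold lower, 2.09 to 2.25), *Lamc1* at 101.0 and 53.6 (1.89-fold lower, 1.78 to 1.99), and *Lamb1* at 207.4 and 139.5 (1.49-fold lower, 1.44 to 1.54). *Lamb2*, the beta chain of the glomerular laminin, was nearer to equal, at 68.4 and 62.3. *Lama2* stood at 38.9 and 37.6, *Lama4*, a chain of vessels, at 6.18 and 7.52, *Lama1* at 16.3 and 22.8 (ratio 1.40, 1.26 to 1.55), and *Lamc3* at 20.3 and 35.1 (ratio 1.73, 1.58 to 1.89).

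The linkers between the networks showed small differences. *Nid1*, nidogen-1, stood at 144.8 and 86.1, 1.68-fold lower (1.61 to 1.76), whereas *Nid2* stood at 25.4 and 26.5 and *Hspg2*, perlecan, at 71.9 and 74.5, both within counting error. Of 12 further basement membrane genes, all compared, 2 were at least 2-fold lower and 1 higher, with a median log2 ratio of -0.04. *Agrn*, the proteoglycan agrin, stood at 308.9 and 139.7, and *Tinagl1*, a tubulointerstitial nephritis antigen-like protein, at 102.6 and 43.5. *Fras1*, a protein of epithelial basement membranes, stood at 10.2 and 38.2. Podocyte markers summed to 445.8 and 472.8 and endothelial markers to 454.5 and 440.4, with none of 6 and none of 7 called. Markers of proximal tubules summed to 2503.8 and 11124, with 6 of 6 at least 2-fold higher, and those of the thick ascending limb to 1885.8 and 3105, with 2 of 3 higher. The part of these cells in the basement membrane values was not tested.

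Integrins of leukocytes and platelets fell into 2 sets. *Itgam*, the alpha subunit of Mac-1 on neutrophils and macrophages, stood at 19.9 from 844 reads in WT+AKI against 1.06 from 35 reads in TG+AKI, 18.8-fold lower (13.4 to 27.2), the lowest ratio of the 90 genes. That value is uncertain, since 71.0% of its 100-base words also occur in the annotated gene Gm49368. *Itgal*, the alpha subunit of LFA-1, stood at 8.80 and 1.54 (5.71-fold lower, 4.26 to 7.81), *Itgax*, a subunit of dendritic cells and macrophages, at 5.14 and 1.78 (2.89-fold lower, 2.16 to 3.92), and *Itgb2*, the beta subunit that all 3 share, at 9.36 and 2.87 (3.26-fold lower, 2.60 to 4.13). *Itgb3*, which pairs with *Itga2b* on platelets and with *Itgav* elsewhere, stood at 7.34 and 2.02 (3.63-fold lower, 2.78 to 4.79). The intervals of the other 4 include a ratio of 1: *Itga4* stood at 3.54 and 3.68, *Itga2b* at 4.15 and 4.47, *Itgae* at 1.16 and 1.36, and *Itgb7* at 0.896 and 1.18. The subunits that share *Itgb2* were thus lower together, and those that pair as *Itga4*, *Itgae* and *Itgb7* on lymphocytes were not.

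Leukocyte markers moved beside the first of these sets. Of 7 macrophage markers 6 were at least 2-fold lower, with a median log2 ratio of -1.44 and a summed value of 151.7 in WT+AKI against 68.7 in TG+AKI. *Cd68* stood at 37.1 and 1.39 and *Adgre1*, the F4/80 antigen, at 10.9 and 4.14, but *Csf1r*, the macrophage growth factor receptor, at 37.5 and 43.0. Of 4 general leukocyte markers 3 were lower, with *Ptprc*, the CD45 antigen, at 13.7 and 7.28. The neutrophil markers with a row (3 of 7) summed to 7.38 and 1.42, T cell markers (5 of 6) to 1.37 and 2.33, and platelet markers (2 of 5) to 0.708 and 0.211, so T cell and platelet markers were close to 0 in both libraries. The part of these cells in the integrin values was not tested.

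**Figure D4:**
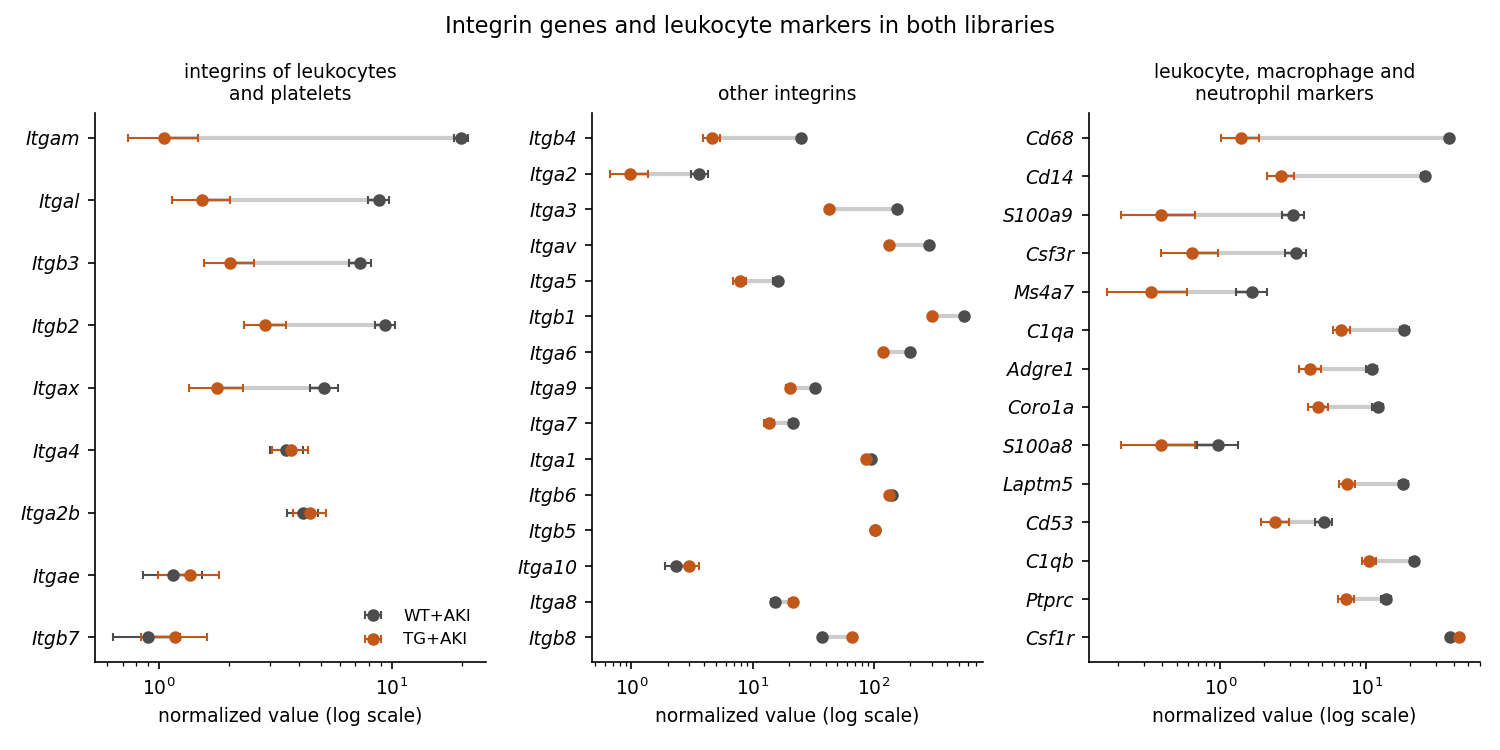
Normalized value (log scale) of integrins of leukocytes and platelets (left), of the other integrins (middle) and of leukocyte, macrophage and neutrophil markers (right) in the WT+AKI library (grey) and the TG+AKI library (orange), 1 library each, with exact 95% counting intervals and a grey line joining the 2 values of a gene. From *Itgam* to *Itgax*, and from *Itgb4* to *Itga7*, TG+AKI is the lower value, whereas *Itga8* and *Itgb8* are higher in TG+AKI.

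Integrins outside the blood lineages ran from 5.45-fold lower to 1.77-fold higher. Of 15 compared, 5 were at least 2-fold lower and none at least 2-fold higher, with a median log2 ratio of -0.66. *Itgb4* (chr11:115974725-116008412), the beta subunit of hemidesmosomes, stood at 25.2 and 4.62 (5.45-fold lower, 4.60 to 6.50), whereas its only alpha partner, *Itga6*, stood at 199.5 and 119.5 (1.67-fold lower, 1.61 to 1.73). The laminin receptor subunit *Itga3* (chr11:95044475-95076844) stood at 155.2 and 42.9 (3.61-fold lower, 3.41 to 3.83). *Itga2*, a collagen receptor subunit, stood at 3.63 and 0.966 (3.76-fold lower, 2.56 to 5.69). *Itgb4* was lower, as was *Lamb3*, a laminin chain of the same hemidesmosomes that was compared through its WT+AKI value alone. *Itga6* and *Lama3* of these structures did not share their size of difference.

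*Itgb1* (chr8:128685654-128733579), the beta subunit shared by most matrix receptors, stood at 556.8 and 301.8, 1.84-fold lower (1.80 to 1.89), and had the highest level per kb of all integrins in both libraries (146.0 and 79.1). *Itga5*, its partner in the fibronectin receptor, stood at 16.0 and 7.79 (2.06-fold lower, 1.78 to 2.39), on the same side as *Fn1*. *Itgav*, the alpha subunit of the vitronectin-type receptors, stood at 283.0 and 133.5 (2.12-fold lower, 2.05 to 2.19). Its beta partners spread around that value, with *Itgb3* and *Itgb1* also lower and the other 3 near equal or higher. *Itgb5* stood at 101.6 and 101.9, a ratio of 1.004 (0.959 to 1.05), *Itgb6*, an activator of latent TGF-beta on epithelium, at 140.6 and 132.3 (1.06-fold lower, 1.02 to 1.11), and *Itgb8*, another such activator, at 37.2 and 65.9, a ratio of 1.77 (1.66 to 1.89). *Itga8*, the receptor subunit for nephronectin, stood at 15.2 and 21.4, a ratio of 1.41 (1.27 to 1.57), and its ligand gene *Npnt* at 106.5 and 203.4. *Itga9* and *Itga7* were each 1.58-fold lower, *Itga1*, a collagen receptor subunit, stood at 93.9 and 86.5, and *Itga10* at 2.34 and 2.99. For *Itga10*, 29.3% of the 100-base words also lie in Gm42957, so its value is uncertain too. *Itgbl1* and *Itgb1bp2* were not compared, and the integrin-binding proteins *Itgb1bp1* (16.4 and 16.8) and *Itgb3bp* (7.45 and 7.19) were within counting error.

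The adaptors that tie integrins to actin inside the cell were closer to the background. Of 21 focal adhesion genes, 4 were at least 2-fold lower and 1 higher, with a median log2 ratio of -0.27. *Actn1*, an actin cross-linker, stood at 143.1 and 27.2, *Bcar1*, a scaffold of focal adhesion signalling, at 148.1 and 69.4, *Zyx*, zyxin, at 75.1 and 36.7, and *Fermt3*, the kindlin of blood cells, at 5.59 and 1.93. *Tln2*, a talin that activates integrins, stood higher in TG+AKI, at 39.0 and 244.6. Of 17 further interstitial matrix genes compared, 4 were at least 2-fold lower and 1 higher, with a median of -0.26. *Spp1*, osteopontin, an integrin ligand, stood at 10183 and 670.6. *Ccn1*, another integrin ligand, stood at 209.0 and 37.0, *Emilin1* of elastic fibres at 92.9 and 29.0, *Emilin2* at 2.64 and 0.362, and *Fmod*, fibromodulin, which was the higher gene, at 2.36 and 6.67.

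The injury markers *Havcr1* and *Lcn2* differed more than any matrix or integrin gene between the same libraries. *Havcr1*, the kidney injury molecule KIM-1, stood at 1168.8 in WT+AKI against 2.78 in TG+AKI (421-fold lower), and *Lcn2*, the gene of NGAL, at 249.8 and 1.87 (133-fold lower), with all 5 genes of the injury list at least 2-fold lower. Their relation to the matrix values was not tested.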

How the data were processed

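Total RNA of whole kidneys was sequenced by the authors as stranded mRNA libraries (100 bp reads), 1 library per group. The submitters' processing notes name STAR 2.7.3a, HTSeq, DESeq2, edgeR, Cufflinks 2.2.1 and FastQC with the build mm10. The annotation and the strand setting of the counting are not given in the sources used here. The deposited values are a normalized signal per gene, which the stated methods credit to DESeq2. All values were whole multiples of a step per library (tolerance 0.001 reads), so whole reads were recovered, and they equal RPM of library totals scaled by TMM factors of 1.10 (WT+AKI) and 0.909 (TG+AKI). Columns of the authors' own comparison (fold changes and p-values) were not used.

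Plain ratios were taken with no pseudocount, over genes that reached a value of 1 in either library, and called at 2-fold. Exact 95% intervals came from the reads (SciPy 1.17.1). A value of 1 is 42.4 reads (WT+AKI) or 33.1 (TG+AKI). The smallest number taken as detected, 3 reads, is 0.0708 or 0.0906. Scripts were tested on simulated data. Transcript lengths and coding sequences came from GENCODE M21 (all 101 genes matched) and promoters from RefSeq's GRCm38.p6 (70 of 101 matched). Positions came from a reference list of gene spans (all 101 genes matched). edgeR 4.0.16 and DESeq2 1.42.0 gave alternative scale factors. Alternatives were the pseudocount, the filter, the scaling, the transcript length and an exact binomial test of the reads.

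Members, classes, marker lists and the rule for named genes (in each class the most abundant, the lowest and the highest ratios, and the type IV pairs) were chosen with earlier results of these data known. Other members are named once to account for them. Some members are not reported by name here.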

Additional observations from a re-analysis of the deposited data

How the results depend on the processing

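No paired analysis was possible because each group had 1 library. Fibrillar collagens kept 4 genes at least 2-fold lower under every alternative, and the 35 lower genes ranged from 26 (filter at a value of 10) to 46 (equal column totals). With library columns scaled to equal totals every log2 ratio was lower by 0.275, 8 genes close to a ratio of 1 changed sign (*Fbln7*, *Hspg2*, *Itga2b*, *Itga4*, *Itgae*, *Itgb1bp1*, *Itgb5* and *Nid2*), basement membrane genes at least 2-fold lower went from 4 to 7, and all genes from 1645 lower and 1103 higher to 2415 lower and 715 higher. DESeq2 size factors moved log2 ratios by 0.016 and changed no sign. All 38 called genes kept their sign under each scaling and pseudocount. The 3 higher genes became 1 with a pseudocount of 1, 0 with the filter at 10 and 6 with no filter. The filter at 10 also left 5 of the 10 lower integrins, and 790 lower and 629 higher among all genes. With no filter 2489 genes (12.6%) were lower and 1821 (9.18%) higher, and the fibrillar median was -0.64, beside -0.66 for integrins, so that the order of these classes by median was lost. With the mean in place of the longest transcript length, *Col4a3* relative to *Col4a1* per kb was 0.300 in WT+AKI and 1.35 in TG+AKI. Without the 3 genes that share at least 10% of their 100-base words, an alternative chosen after seeing the data, 34 genes were lower, 9 of them integrins. An exact binomial test of the reads compares these 2 libraries, not the genotypes. It gave an adjusted p under 0.05 for 73 of the 90 genes and for 11011 of 14997 in all, so depth is not what limits these values. The lone library per group is.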

Other observations

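Promoter sequence of the matrix and integrin genes was searched for 4 short motifs, on both strands, from 250 bp before to 50 bp after each RefSeq start. A window was given for 70 of the 101 genes and for 27025 genes in all. The 27025 include genes outside the 19829 of the table, whereas all 70 are in it, so the shares below come from unlike sets. A GC box (GGGCGG) was in the windows of 44 of the 70 genes (62.9%) and in those of 38.2% of all genes. A CCAAT box (CCAAT) was in 22 (31.4%, against 41.1% of all genes), a TATA box (TATAAA) in 6 (8.57%, against 15.7%) and an AP-1 site (TGANTCA) in 4 (5.71%, against 8.97%). *Col4a1*, *Col4a2* and *Col4a5* had both a GC box and a CCAAT box, *Col4a6* a GC box alone, and *Col4a4* none of the 4 motifs. *Itga3*, 3.61-fold lower in TG+AKI, held a GC box, a CCAAT box and an AP-1 site. Its windows at separate starts were pooled, so these motifs need not lie in 1 window. The other genes with an AP-1 site were *Col6a1*, *Itga9* and *Itgax*. These are matches of letters, with no measure of binding.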
